A study of Mus musculus with 30 samples.

Results

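OSW-1 is a steroidal saponin from the bulbs of Ornithogalum saundersiae that binds OSBP, the oxysterol-binding protein. Its effect on resting macrophages was measured by setting 3 OSW-1 libraries against 3 untreated ones, 6 of the 30 RNA-seq libraries in the series, chosen by their column names. All came from bone marrow derived macrophages (BMDM) of C57BL/6 mice numbered 1 to 3 in the labels. OSW-1 cells had received 0.3 µM of the compound for 18 h, untreated cells no compound, and neither received lipopolysaccharide (LPS). Unstimulated libraries of mice with the same numbers, treated with 25-hydroxycholesterol (25HC, 5 µM for 18 h) and with the antifungal itraconazole (1 µM for 18 h), both also described as OSBP ligands, were used as points of comparison. Doses differ among the 3 compounds, no vehicle is named for untreated cells, and the labels give neither age nor sex. Other libraries of the series received LPS or came from Ch25h-/- mice. The labels give each library a mouse number, 1 to 3 within the genotype, so the results speak for 3 numbered animals. The main p-values come from a fit that does not pair libraries by mouse. It estimates the spread of each gene over all 30 libraries, LPS and Ch25h-/- ones included.

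OSBP sits where the endoplasmic reticulum (ER) touches the trans-Golgi. It carries cholesterol from the ER to the Golgi and takes the phospholipid PI4P back, so it links sterol supply with the secretory pathway. ER cholesterol also sets the activity of SREBP-2, the transcription factor of cholesterol synthesis and uptake, which SCAP escorts to the Golgi when sterol is low and which INSIG proteins hold back when sterol or certain oxysterols are plentiful. Oxysterols in addition activate the liver X receptors (LXR), which drive cholesterol export. A macrophage at rest also keeps a low tonic signal of type I interferon running.

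Total counts were 31865240 to 40770004 in OSW-1 libraries and 30634780 to 38711824 in untreated libraries. Levels are given as CPM, counts scaled to a common library size with TMM factors, always in the order mouse 1, 2, 3. A value with ± after a gene is the log2 fold change and its standard error from an edgeR quasi-likelihood fit over all 30 libraries. A gene was called at a Benjamini-Hochberg adjusted p under 0.05. Of 13173 genes tested, 4912 were called between OSW-1 and untreated cells, 37.3% of the total, so this is the share against which any list below has to be read. In 1 direction the shares were 20.1% called higher (2643 genes) and 17.2% called lower (2269 genes). Only 594 of the higher genes (4.51%) and 638 of the lower ones (4.84%) reached a log2 fold change of 1, and the median absolute log2 fold change of all called genes was 0.57. The median log2 fold change of all tested genes was 0. In a principal component analysis of the 12 unstimulated wild-type libraries, the first axis held 50.6% of the variance and placed the OSW-1 libraries at 24.37, 21.75 and 16.64 and the untreated ones at -31.59, -33.66 and -41.89.

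Macrophage identity was checked on 10 marker genes. All were detected, and their summed level was 21275 to 21751 CPM in OSW-1 libraries and 18124 to 22887 CPM in untreated libraries, with 3 markers called higher (Cd14, Csf1r, Spi1) and 4 lower (Emr1, Cd68, Fcgr1, Mertk). Markers of other cells were scarce. The 9 neutrophil genes summed to 3.79 to 6.22 CPM with OSW-1 and 2.13 to 6.67 CPM without, and Ly6g was at 0. The 8 dendritic cell genes summed to 1.17 to 1.35 CPM with OSW-1 and 1.86 to 3.261 CPM without. T and NK cell genes came to 3.76 to 6.56 CPM and 15.6 to 27.7 CPM, most of it Cd4, while Cd3e, Cd8a and Ncr1 were at 0. Cd4 itself fell by 2.50 on the log2 scale. Klrb1c, the NK receptor gene for NK1.1, was the T and NK marker called higher, with 1.26, 1.03 and 1.68 CPM in OSW-1 libraries, against 0.189, 0.0521 and 0 CPM in untreated libraries (3.88 ± 0.75, adjusted p = 0.000294). B cell genes summed to 4.23 to 4.78 CPM in OSW-1 libraries and 8.55 to 11.3 CPM in untreated libraries, with Pax5 at 0. Erythroid genes came to 0.830 to 0.953 CPM and 2.88 to 4.71 CPM, with Hba-a1 at 0, and stromal genes to 4.88 to 7.13 CPM and 6.13 to 11.9 CPM. Mast cell genes stayed under 0.31 CPM in every library. In such bulk samples, fewer cells of a kind and less RNA per cell cannot be told apart.

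**Figure D1:**
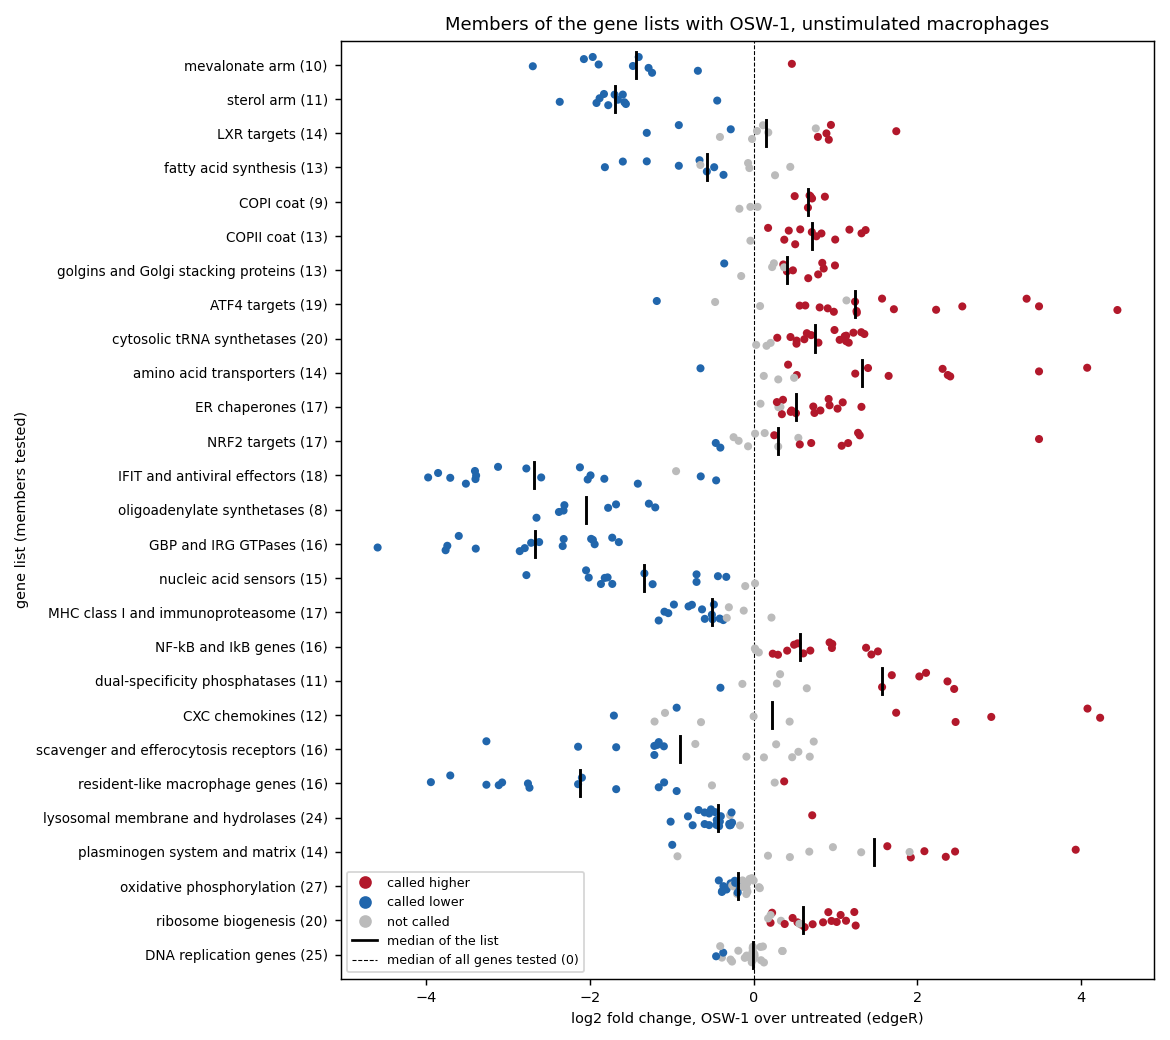
Each point is 1 gene, placed by its log2 fold change between OSW-1 and untreated libraries (horizontal axis), in rows of gene lists with the number of members tested in brackets. Red points were called higher, blue ones lower, grey ones not called, and black bars mark list medians. The sterol arm (median -1.70) and the GBP and IRG GTPases (median -2.67) lie left of the dashed line at 0, and the COPII coat (median 0.71) and the ATF4 targets (median 1.24) lie mostly right of it.

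Genes of cholesterol synthesis fell with OSW-1 almost without exception. In the mevalonate arm, which turns acetyl-CoA into farnesyl diphosphate, 9 of 10 genes fell and 1 rose (list median -1.44). In the sterol arm, which closes the rings and ends at cholesterol, 11 of 11 fell (median -1.70). Hmgcs1, which makes HMG-CoA, has in its promoter the sterol regulatory element TCACNCCAC that SREBP factors are known to bind, and is shown for that reason. The window searched ran from 250 bases before to 50 after the RefSeq start on GRCm38.p6, on both strands. The letters were found in 1.44% of 27025 genes and in 1 of the 16 synthesis genes that had a promoter entry. The 250 bases before the start of Hmgcs1 (chr13:119690101-119690350, plus strand) are printed with the match, which starts 137 bases before the start, in capitals.
Hmgcs1: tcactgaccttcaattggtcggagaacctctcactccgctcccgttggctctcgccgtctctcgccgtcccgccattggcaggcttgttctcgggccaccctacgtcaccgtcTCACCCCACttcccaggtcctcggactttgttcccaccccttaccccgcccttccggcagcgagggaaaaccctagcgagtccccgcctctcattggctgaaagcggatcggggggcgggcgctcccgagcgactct

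Fdps, farnesyl diphosphate synthase, had 10.6, 9.67 and 11.3 CPM in OSW-1 libraries, against 76.1, 85.6 and 42.7 CPM in untreated libraries. All OSW-1 libraries lay below all untreated ones, and mouse 3 was the lowest among the untreated. The log2 fold change was -2.70 ± 0.23, adjusted p = 2.65e-09. Idi1, the isomerase one step earlier, had 3.70, 3.56 and 4.15 CPM in OSW-1 libraries, against 17.3, 20.4 and 10.2 CPM in untreated libraries (-2.07 ± 0.26, adjusted p = 7.46e-07). Sqle, which commits squalene to the sterol arm, had 27.1, 26.9 and 26.1 CPM in OSW-1 libraries, against 87.4, 105 and 50.04 CPM in untreated libraries (-1.60 ± 0.20, adjusted p = 1e-06). The groups did not overlap at any of these genes. Ggps1, which leads away from sterols to geranylgeranyl diphosphate, was the exception that rose, with 27.2, 24.2 and 22.1 CPM in OSW-1 libraries, against 18.3, 16.5 and 18.5 CPM in untreated libraries (0.47 ± 0.10, adjusted p = 0.000632).

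The SREBP-2 gene itself fell. Srebf2 had 110.3, 119 and 119 CPM in OSW-1 libraries, against 263, 288 and 219 CPM in untreated libraries (-1.15 ± 0.09, adjusted p = 7.85e-10), all 3 OSW-1 values being under all 3 untreated ones. Of the 7 genes of the SREBP machinery, 2 fell and 1 rose. Scap was not called, with 58.4, 59.99 and 58.6 CPM in OSW-1 libraries, against 56.3, 53.7 and 55.7 CPM in untreated libraries (0.10 ± 0.12, adjusted p = 0.567), and the protease gene Mbtps2 rose by 0.29. Of 10 genes of cholesterol uptake, transport and esterification 4 fell, 1 rose and 5 were not called (median -0.24). Stard4, a cytosolic cholesterol carrier, had 19.6, 24.99 and 22.03 CPM in OSW-1 libraries, against 91.5, 102 and 62.9 CPM in untreated libraries (-1.94 ± 0.20, adjusted p = 5.05e-08). Soat2, an enzyme that stores cholesterol as ester, went the other way. Its level was 14.3, 8.88 and 10.03 CPM with OSW-1, against 0.851, 0.938 and 0.495 CPM without, so the lowest OSW-1 library lay above the highest untreated one (3.84 ± 0.32, adjusted p = 1.58e-09). The HDL receptor Scarb1 (-1.10) and the lysosomal cholesterol carrier Npc2 (-0.41) fell. The Npc2 call was lost when OSW-1 mouse 1 (-0.37), OSW-1 mouse 2 (-0.38) or untreated mouse 3 (-0.37) was left out.

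LXR targets split. Of 14, 5 rose and 3 fell (median 0.15). Rnf145, an ER ubiquitin ligase, had 183, 197 and 178 CPM in OSW-1 libraries, against 51.2, 57.1 and 58.6 CPM in untreated libraries (1.74 ± 0.15, adjusted p = 3.86e-09). Mylip, a ubiquitin ligase of lipoprotein receptors, had 127, 114 and 124 CPM in OSW-1 libraries, against 63.9, 57.7 and 67.8 CPM in untreated libraries (0.94 ± 0.14, adjusted p = 9.7e-06). Arl4c, a small GTPase, had 458, 418 and 469 CPM in OSW-1 libraries, against 238, 210.0 and 263 CPM in untreated libraries (0.92 ± 0.11, adjusted p = 4.54e-07). All 3 of these genes had higher values in every OSW-1 library than in any untreated one. Of the members that fell, Scd1 and Scd2 encode desaturases that are also known SREBP targets, and Lpcat3 a phospholipid-remodelling enzyme. Scd1 fell by 1.30 on the log2 scale and Lpcat3 by 0.28. Scd2 was called lower although the groups overlapped, with 136, 189 and 244 CPM in OSW-1 libraries, against 408, 447 and 218 CPM in untreated libraries (-0.91 ± 0.34, adjusted p = 0.0342), a call lost without OSW-1 mouse 1 or 2 or untreated mouse 1 or 2 (-0.72 to -0.91). In fatty acid synthesis 8 of 13 genes fell and none was called higher (median -0.57). Among them were Acly, which supplies acetyl-CoA (-0.66 ± 0.08), Acss2, which activates acetate (-1.82 ± 0.30), and the desaturase Fads2 (-1.60 ± 0.36).

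Transcripts of the target family moved in both directions. Osbp had 110.1, 99.2 and 99.8 CPM in OSW-1 libraries, against 76.6, 71.9 and 68.9 CPM in untreated libraries, which do not overlap (0.51 ± 0.09, adjusted p = 4.89e-05). Of 11 family members tested, 2 rose and 3 fell, and Osbpl6 had no count in the 6 libraries. Osbp2, the member also known as ORP4 and the other reported OSW-1 binder, was not called, with 4.44, 3.32 and 2.41 CPM in OSW-1 libraries, against 5.67, 5.99 and 4.58 CPM in untreated libraries (-0.67 ± 0.35, adjusted p = 0.135). It passed with the mouse as a replicate block (-0.70) and in the fit on the 6 libraries alone (-0.68). Osbpl11 fell, with 77.3, 76.6 and 93.3 CPM in OSW-1 libraries, against 145, 145 and 161 CPM in untreated libraries (-0.87 ± 0.10, adjusted p = 3.54e-07). Other calls rested on single libraries. Osbpl2 rose (0.21 ± 0.07) but not without OSW-1 mouse 1 or 2 or untreated mouse 3 (0.18 to 0.20). Osbpl1a fell (-0.37 ± 0.12) but not without OSW-1 mouse 1 or untreated mouse 1 or 2 (-0.28 to -0.33), and Osbpl5 fell (-0.99 ± 0.34) but not without OSW-1 mouse 1 or 2 or untreated mouse 1 or 2 (-0.83 to -1.03). At the contact sites where OSBP works, Acbd3, which recruits the PI4P-making kinase PI4KB, had 119, 109 and 103 CPM in OSW-1 libraries, against 56.2, 57.8 and 57.7 CPM in untreated libraries (0.95 ± 0.11, adjusted p = 2.91e-07). The ceramide carrier CERT, listed as Col4a3bp, had 150.0, 139.8 and 127 CPM in OSW-1 libraries, against 87.4, 85.9 and 83.6 CPM in untreated libraries (0.70 ± 0.12, adjusted p = 3.59e-05). The ER anchors diverged. Vapa rose (0.43 ± 0.07), whereas Vapb had 120.0, 117 and 116 CPM in OSW-1 libraries, against 160.3, 163 and 145 CPM in untreated libraries and fell (-0.41 ± 0.06, adjusted p = 1.86e-05). Pi4kb was not called (-0.04 ± 0.07, adjusted p = 0.661). In oxysterol metabolism, the 27-hydroxylase Cyp27a1 fell (-1.32 ± 0.36, adjusted p = 0.00592), a call lost without untreated mouse 3 (-0.94). Gpr183, the receptor of an oxysterol chemoattractant, was called higher (0.91 ± 0.33, adjusted p = 0.0319) but not under DESeq2 (0.89) or when any library except OSW-1 mouse 1 was left out (0.78 to 1.00).

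**Figure D2:**
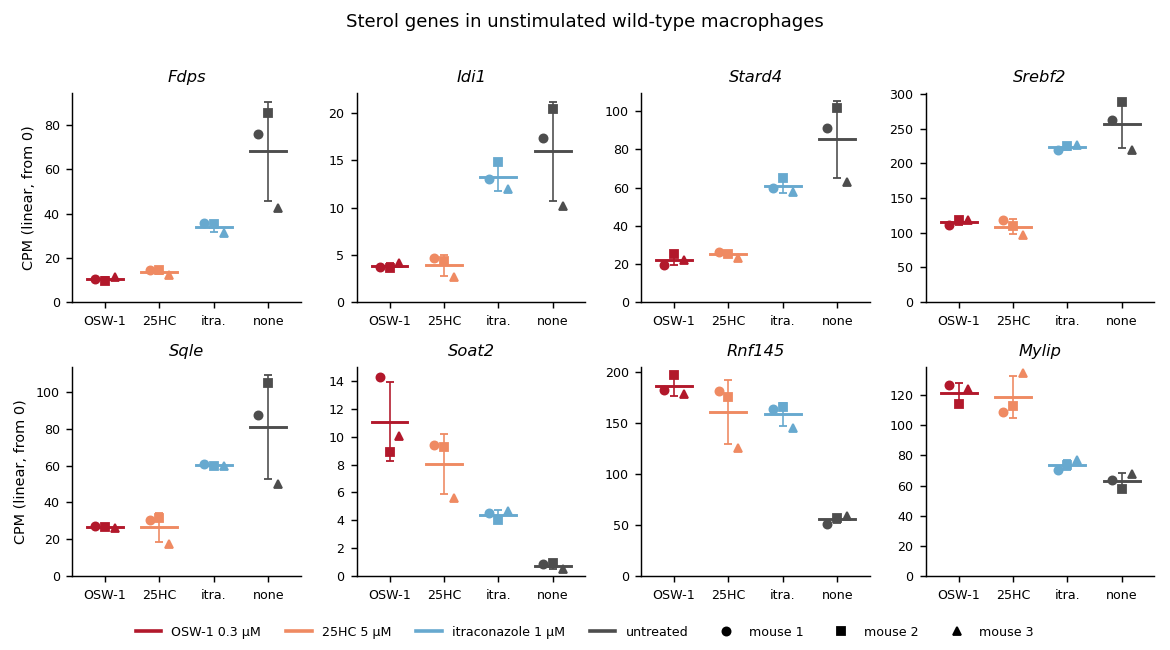
Points are single libraries (marker shape gives the mouse), with CPM on a linear axis from 0, for OSW-1, 25HC, itraconazole and untreated cells from left to right. Bars give the mean and whiskers the SD of 3 mice. Stard4 averaged 22.2 ± 2.70 CPM with OSW-1, 24.9 ± 1.49 with 25HC, 60.8 ± 3.73 with itraconazole and 85.4 ± 20.1 without compound (SD).

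Genes of vesicle traffic between ER and Golgi rose together. COPII builds the outbound coat, COPI the return coat, and KDEL receptors fetch escaped ER proteins back. In the COPII list 12 of 13 rose (median 0.71), in the COPI list 6 of 9 (median 0.66), among KDEL receptors and p24 cargo proteins 6 of 11 (median 0.42), and none of these 3 lists had a member called lower. Among golgins and Golgi stacking proteins 8 of 13 rose and 1 fell (median 0.41). The 7 letters ACGTGGC, the Golgi apparatus stress response element, were found on either strand in the windows of 13 of the 40 list members with a promoter entry, against 2.95% of all 27025 genes and 4.55% of the 10084 genes tested. The promoter with the smallest p among those 13 is that of Sec24d, a cargo adaptor of COPII (chr3:123267246-123267495, plus strand), where the element starts 24 bases before the start.
Sec24d: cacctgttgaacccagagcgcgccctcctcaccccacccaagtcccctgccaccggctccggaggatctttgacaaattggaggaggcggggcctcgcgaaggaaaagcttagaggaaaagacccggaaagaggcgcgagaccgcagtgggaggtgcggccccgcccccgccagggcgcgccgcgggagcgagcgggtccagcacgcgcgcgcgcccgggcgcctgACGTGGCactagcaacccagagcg

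Sec31a, of the outer COPII cage, had 216, 202 and 193 CPM in OSW-1 libraries, against 81.6, 81.3 and 73.7 CPM in untreated libraries (1.37 ± 0.11, adjusted p = 6.6e-10). Sec23a, of the inner layer, had 91.9, 76.5 and 78.5 CPM in OSW-1 libraries, against 35.3, 38.2 and 36.3 CPM in untreated libraries (1.17 ± 0.09, adjusted p = 4.79e-10). Sar1a, the GTPase that starts the coat, had 222, 219 and 218 CPM in OSW-1 libraries, against 118, 111 and 101 CPM in untreated libraries (0.997 ± 0.07, adjusted p = 2.01e-10). The 3 OSW-1 values of each gene lay above the 3 untreated values. Its paralog Sar1b was the COPII gene not called (-0.04 ± 0.08, adjusted p = 0.732). Copg1 of the COPI coat had 209, 199 and 189 CPM in OSW-1 libraries, against 109.9, 114 and 102 CPM in untreated libraries (0.87 ± 0.08, adjusted p = 4.9e-09), and Cope had 171, 164 and 171 CPM in OSW-1 libraries, against 102, 107 and 103 CPM in untreated libraries (0.70 ± 0.06, adjusted p = 1.36e-09). Of the cargo receptors, Kdelr3 was close to absent in untreated cells. It held 66 reads over the OSW-1 libraries and 3 over the untreated ones, a ratio of 20.3 (95% exact counting interval 6.64 to 101). Kdelr1 was not called (0.16 ± 0.09, adjusted p = 0.144). The stacking protein gene Gorasp2 had 167, 156 and 155 CPM in OSW-1 libraries, against 93.8, 91.3 and 82.1 CPM in untreated libraries (0.84 ± 0.07, adjusted p = 1.66e-09), and the tethers Uso1 (0.79 ± 0.09) and Blzf1 (0.99 ± 0.14) rose as well. Gcc2, a trans-Golgi golgin, was the one that fell (-0.36 ± 0.11).

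Creb3, a membrane-bound factor that is cut in the Golgi, had 117, 103 and 97.2 CPM in OSW-1 libraries, against 55.6, 53.9 and 49.1 CPM in untreated libraries (1.004 ± 0.10, adjusted p = 5.93e-08). Its relative Creb3l2 had 27.7, 32.5 and 33.4 CPM in OSW-1 libraries, against 18.9, 19.6 and 20.4 CPM in untreated libraries (0.67 ± 0.09, adjusted p = 1.53e-06), and Arf4, a Golgi GTPase gene known as a Creb3 target, had 215, 199 and 191 CPM in OSW-1 libraries, against 122, 127 and 122 CPM in untreated libraries (0.71 ± 0.09, adjusted p = 2.41e-06). None of these 3 genes had overlapping groups. Neighbouring lipid genes moved in part. Cers5, a ceramide synthase, had 142, 132 and 131 CPM in OSW-1 libraries, against 75.9, 74.1 and 76.9 CPM in untreated libraries (0.83 ± 0.08, adjusted p = 4.14e-08), and Sgms1, the Golgi sphingomyelin synthase, had 132, 111 and 106 CPM in OSW-1 libraries, against 55.5, 56.5 and 61.8 CPM in untreated libraries (1.01 ± 0.14, adjusted p = 6.12e-06). Of 18 ceramide and sphingomyelin enzymes 8 rose and 4 fell, with 5 called higher without untreated mouse 3 and 2 called lower without it or OSW-1 mouse 1.

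Targets of ATF4, the factor translated when eIF2α is phosphorylated, were among the largest rises. Of 19 tested, 15 rose and 1 fell (median 1.24). Trib3, a pseudokinase that feeds back on ATF4 signalling, had 103, 68.2 and 57.1 CPM in OSW-1 libraries, against 10.6, 7.82 and 3.96 CPM in untreated libraries (3.33 ± 0.40, adjusted p = 4.13e-07). Asns, asparagine synthetase, had 224, 166 and 132 CPM in OSW-1 libraries, against 36.95, 35.1 and 16.9 CPM in untreated libraries (2.55 ± 0.36, adjusted p = 4.72e-06). At both genes mouse 1 was the highest and mouse 3 the lowest OSW-1 library, and neither gene had overlapping groups. Slc7a11, the cystine importer, had 11.9, 6.59 and 4.76 CPM in OSW-1 libraries, against 0.520, 0.782 and 0.805 CPM in untreated libraries (3.49 ± 0.51, adjusted p = 7.38e-06). Ddit4, an mTORC1 inhibitor, was the member that fell, with 3.35, 3.17 and 3.25 CPM in OSW-1 libraries, against 7.84, 7.30 and 7.06 CPM in untreated libraries (-1.18 ± 0.17, adjusted p = 6.48e-06). Gdf15 was not called, with 38.5, 22.3 and 13.95 CPM in OSW-1 libraries, against 46.4, 37.05 and 20.2 CPM in untreated libraries (-0.47 ± 0.60, adjusted p = 0.575).

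Amino acid supply genes rose with them. Among serine and one-carbon enzymes 9 of 12 rose and 1 fell (median 0.90), among cytosolic tRNA synthetases 17 of 20 rose and none fell (median 0.75), and among amino acid transporters 10 of 14 rose and 1 fell (median 1.32). Mthfd2, a mitochondrial folate enzyme, had 178, 139 and 121 CPM in OSW-1 libraries, against 38.4, 41.2 and 20.4 CPM in untreated libraries (2.13 ± 0.26, adjusted p = 6.27e-07). Mars, the methionyl-tRNA synthetase, had 153, 125 and 108 CPM in OSW-1 libraries, against 54.8, 56.2 and 40.1 CPM in untreated libraries (1.35 ± 0.16, adjusted p = 3.64e-07). Qars was among the synthetases not called (0.03 ± 0.08, adjusted p = 0.8). Slc7a1, an arginine importer, had 149.5, 122 and 95.9 CPM in OSW-1 libraries, against 27.03, 31.5 and 12.3 CPM in untreated libraries (2.37 ± 0.31, adjusted p = 1.57e-06). The glycine transporter Slc6a9 had 9.58, 3.95 and 4.26 CPM in OSW-1 libraries, against 0.520, 0.313 and 0.186 CPM in untreated libraries (4.07 ± 0.60, adjusted p = 7.54e-06). The OSW-1 values of all 4 called genes exceeded the untreated ones. The transporter gene Slc43a2 fell (-0.65 ± 0.15). The ATF4-binding element TGATGNAAT was present in 5 of 47 windows of these 4 lists (Nupr1, Pycr1, Aars, Iars and Gars), against 1.08% of all genes. Nupr1, a stress-induced chromatin protein, had the smallest p of these. Its promoter lies on the minus strand (chr7:126625471-126625720) and is printed in the direction of the gene. The capitals mark the reverse complement of the element, whose match starts 111 bases before the start.
Nupr1: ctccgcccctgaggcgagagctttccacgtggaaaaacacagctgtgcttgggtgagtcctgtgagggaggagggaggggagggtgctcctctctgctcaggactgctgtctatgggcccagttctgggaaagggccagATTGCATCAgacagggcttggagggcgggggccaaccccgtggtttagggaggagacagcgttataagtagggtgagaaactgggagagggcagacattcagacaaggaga

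The chaperones of the ER lumen rose by smaller steps. Of 17, 14 rose and none fell (median 0.52), with 9 called without untreated mouse 3, and of 16 ER stress sensors and degradation genes 12 rose and none fell (median 0.45). Hspa5, the chaperone BiP, had 1511, 1646 and 1832 CPM in OSW-1 libraries, against 933, 997 and 692 CPM in untreated libraries (0.93 ± 0.13, adjusted p = 4.01e-06). Hyou1, its exchange factor, had 233, 246 and 256 CPM in OSW-1 libraries, against 108, 117 and 70.7 CPM in untreated libraries (1.32 ± 0.15, adjusted p = 2.49e-07). Xbp1, the mRNA that IRE1 splices, had 266, 261 and 272 CPM in OSW-1 libraries, against 182, 167 and 143 CPM in untreated libraries (0.70 ± 0.07, adjusted p = 5.7e-08), and splicing is not visible in gene counts. Herpud1, an ER degradation factor, had 147, 132 and 137 CPM in OSW-1 libraries, against 61.4, 54.5 and 60.2 CPM in untreated libraries (1.24 ± 0.15, adjusted p = 3.74e-07). Groups were apart at all 4 genes. The ER stress element, CCAAT and CCACG with any 9 bases between them on either strand, whose last 5 letters also lie in the reverse complement of the Golgi element above, was found in 7 of 13 chaperone windows and in 0.137% of all genes. Hspa5 had the smallest p of the 7 (chr2:34771840-34772089, plus strand). The match starts 65 bases before the start.
Hspa5: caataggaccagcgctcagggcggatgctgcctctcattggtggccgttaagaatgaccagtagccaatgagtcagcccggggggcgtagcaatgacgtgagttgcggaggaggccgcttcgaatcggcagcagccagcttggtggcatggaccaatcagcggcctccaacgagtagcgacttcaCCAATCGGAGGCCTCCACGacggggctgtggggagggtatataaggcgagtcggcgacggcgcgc

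The other stress programmes were uneven. Of 17 targets of NRF2, the oxidative stress factor, 8 rose and 2 fell (median 0.30). The classical targets Hmox1 (-0.24 ± 0.29, adjusted p = 0.548) and Nqo1 (0.30 ± 0.34, adjusted p = 0.515) were not called. Sqstm1, which encodes the autophagy receptor p62, had 1997, 1418 and 1259 CPM in OSW-1 libraries, against 677, 594 and 659 CPM in untreated libraries (1.28 ± 0.30, adjusted p = 0.00143). Of 15 heat shock chaperones 8 rose and none fell (median 0.41). The co-chaperone gene Bag3 had 71.96, 71.1 and 80.9 CPM in OSW-1 libraries, against 37.2, 38.2 and 38.8 CPM in untreated libraries (0.97 ± 0.10, adjusted p = 2.46e-08), whereas Hspa8 was not called (-0.08 ± 0.15, adjusted p = 0.713). Hspb1 held 20 reads in OSW-1 libraries and 1 in untreated ones, a ratio of 18.4 with a 95% exact counting interval of 2.95 to 764. Among 16 p53 targets 7 rose and 5 fell, with 4 called higher without untreated mouse 3 and 3 called lower without OSW-1 mouse 3 or untreated mouse 1. Plk3, a stress kinase gene, had 13.5, 15.3 and 15.6 CPM in OSW-1 libraries, against 1.18, 1.67 and 1.73 CPM in untreated libraries (3.28 ± 0.25, adjusted p = 6.36e-10), while Sesn1 had 67.3, 90.7 and 124 CPM in OSW-1 libraries, against 349, 347 and 450.0 CPM in untreated libraries (-2.02 ± 0.28, adjusted p = 3.4e-06) and Cdkn1a was not called (0.31 ± 0.21, adjusted p = 0.247). Of 22 apoptosis regulators 4 rose and 5 fell, and 2 were called higher without OSW-1 mouse 1 or 2 or untreated mouse 1 or 3. Bcl2, an inhibitor of apoptosis, had 34.1, 34.7 and 25.7 CPM in OSW-1 libraries, against 8.98, 12.04 and 3.96 CPM in untreated libraries (1.91 ± 0.32, adjusted p = 3.78e-05), and the caspase gene Casp9 fell (-0.60 ± 0.10).

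**Figure D3:**
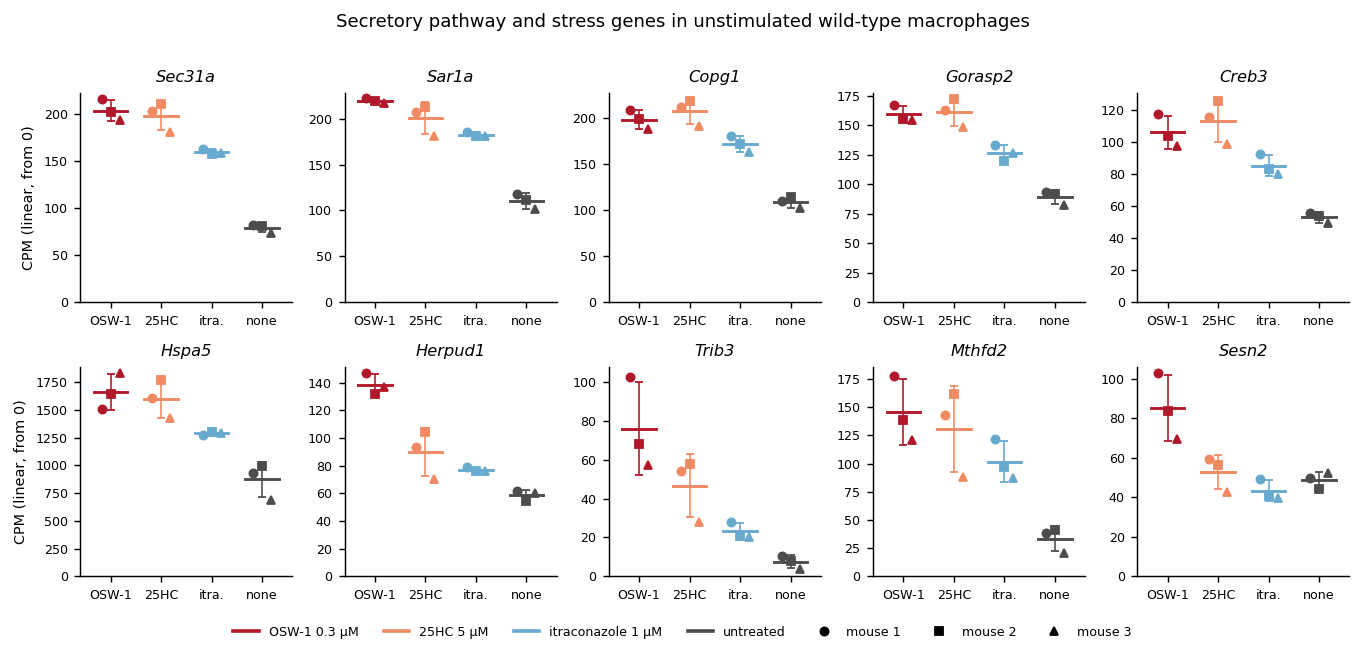
Single libraries of OSW-1, 25HC, itraconazole and untreated cells are plotted as CPM on linear axes from 0, with means (bars) and SD (whiskers) of 3 mice and marker shape for the mouse. Sec31a averaged 204 ± 11.3 CPM with OSW-1, 198 ± 15.8 with 25HC, 159 ± 2.94 with itraconazole and 78.9 ± 4.49 without compound (SD), and Herpud1 averaged 138 CPM with OSW-1, 89.6 with 25HC, 76.9 with itraconazole and 58.7 without compound.

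Interferon-stimulated genes fell nearly without exception. Among IFIT and other antiviral effectors 17 of 18 fell (median -2.69), among oligoadenylate synthetases 8 of 8 (median -2.04), and among guanylate-binding proteins (GBP) and immunity-related GTPases (IRG) 16 of 16 (median -2.67). None of these 42 genes was called higher. Isg20 was the one not called (-0.95 ± 0.38, adjusted p = 0.0533). It passed under every other setting except halved even counts (-0.94 to -0.98), and without untreated mouse 3 (-1.10). The interferon-stimulated response element, here GAAA, any 2 bases and GAAA again on either strand, was present in 21 of 30 windows of these genes, against 3.99% of all genes. Gbp7 had the smallest p among them (chr3:142530086-142530335, plus strand). Its promoter is shown with the match, which lies on the opposite strand and starts 53 bases before the start, in capitals.
Gbp7: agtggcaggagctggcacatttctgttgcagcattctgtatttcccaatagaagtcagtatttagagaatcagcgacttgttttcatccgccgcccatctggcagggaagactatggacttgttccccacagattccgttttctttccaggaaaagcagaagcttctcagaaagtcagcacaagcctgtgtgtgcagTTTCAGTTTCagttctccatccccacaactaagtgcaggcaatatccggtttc

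Rtp4, a chaperone-like inhibitor of viral replication, had 19.2, 18.2 and 25.8 CPM in OSW-1 libraries, against 138, 168 and 127 CPM in untreated libraries (-2.78 ± 0.20, adjusted p = 2.03e-10). Ifit1, which binds viral RNA ends, had 5.88, 6.35 and 7.68 CPM in OSW-1 libraries, against 49.002, 62.1 and 99.3 CPM in untreated libraries (-3.40 ± 0.37, adjusted p = 8.99e-08). Rsad2, which makes a chain-terminating nucleotide, had 13.4, 12.7 and 16.6 CPM in OSW-1 libraries, against 114, 137 and 237 CPM in untreated libraries (-3.51 ± 0.52, adjusted p = 8.43e-06). The highest OSW-1 value was far below the lowest untreated value in each. Mx1, a dynamin-like antiviral GTPase, had 3.18, 4.44 and 5.38 CPM in OSW-1 libraries, against 29.96, 46.9 and 58.8 CPM in untreated libraries (-3.39 ± 0.35, adjusted p = 4.17e-08). Oasl2 of the synthetase family had 45.7, 48.2 and 66.7 CPM in OSW-1 libraries, against 257, 321 and 224 CPM in untreated libraries (-2.32 ± 0.20, adjusted p = 2.82e-09). Gbp7 had 2.61, 2.64 and 2.91 CPM in OSW-1 libraries, against 29.9, 33.2 and 46.1 CPM in untreated libraries (-3.74 ± 0.29, adjusted p = 7.53e-10), and Irgm1, which controls the other IRG proteins, had 40.6, 44.2 and 53.7 CPM in OSW-1 libraries, against 141, 168 and 149 CPM in untreated libraries (-1.73 ± 0.16, adjusted p = 5.67e-09). Ifitm3, which blocks viral entry, moved least among the called antiviral genes, with 648, 539 and 544 CPM in OSW-1 libraries, against 807, 845 and 726 CPM in untreated libraries (-0.46 ± 0.13, adjusted p = 0.0068). Members of the Ifit, Oas and Gbp families are close paralogs, and how reads shared between them were counted is not stated.

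Regulators of the response differed among themselves. Irf7, which amplifies interferon transcription, had 30.4, 30.4 and 49.9 CPM in OSW-1 libraries, against 160.2, 223 and 161 CPM in untreated libraries (-2.30 ± 0.25, adjusted p = 1.44e-07). Stat2, a factor that interferon receptors activate, had 47.1, 46.8 and 53.7 CPM in OSW-1 libraries, against 168, 189 and 165 CPM in untreated libraries (-1.82 ± 0.19, adjusted p = 7.7e-08). The groups were apart at both genes. Receptor genes did not fall. Ifngr1 had 305, 342 and 372 CPM in OSW-1 libraries, against 183, 196 and 231 CPM in untreated libraries and rose (0.74 ± 0.12, adjusted p = 2.62e-05). Ifnar1 was called higher (0.37 ± 0.12, adjusted p = 0.0178) but not without OSW-1 mouse 2 or 3 or untreated mouse 1 (0.33 to 0.36), and Ifnar2 (-0.16 ± 0.12, adjusted p = 0.29) and the kinase gene Jak1 (-0.11 ± 0.10, adjusted p = 0.415) were not called. Irf5 rose, with 345, 329.5 and 345 CPM in OSW-1 libraries, against 193, 196 and 235 CPM in untreated libraries (0.71 ± 0.13, adjusted p = 9.15e-05), and Irf3 was not called (0.11 ± 0.08, adjusted p = 0.281). Nucleic acid sensors fell in 13 of 15 genes and rose in none (median -1.33). Ddx58, which encodes the RNA sensor RIG-I, had 32.6, 35.05 and 33.9 CPM in OSW-1 libraries, against 113, 126 and 110.5 CPM in untreated libraries (-1.78 ± 0.18, adjusted p = 3.61e-08). The DNA sensor cGAS, listed as Mb21d1 (-0.10 ± 0.20, adjusted p = 0.727), and its partner STING, listed as Tmem173 (0.02 ± 0.11, adjusted p = 0.927), were not called. Eif2ak2, the RNA-activated kinase PKR, had 40.9, 40.5 and 39.8 CPM in OSW-1 libraries, against 95.2, 108 and 82.1 CPM in untreated libraries (-1.23 ± 0.14, adjusted p = 1.48e-07).

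Interferon transcripts themselves were at the edge of detection. Ifna1, Ifna2, Ifna4, Ifna5, Ifnk and Ifng had no count in the 6 libraries, and Ifnb1 had a count in 1 OSW-1 library only, so no change in them was detectable at this depth. Antigen presentation genes fell by less. Of 17 MHC class I and immunoproteasome genes 13 fell and none rose (median -0.51), led in size by the proteasome subunit Psmb9 (-1.16 ± 0.15) and the peptide transporter Tap1 (-0.97 ± 0.16), with B2m at -0.49 ± 0.12. Of 11 MHC class II genes 2 fell, Ciita, the class II transactivator (-2.20 ± 0.51, adjusted p = 0.00152), and H2-DMb1 (-0.65 ± 0.24, adjusted p = 0.0329). H2-DMb1 kept its call without OSW-1 mouse 3 and with no other library left out (-0.55 to -0.66). With the mouse as a replicate block 7 of 11 fell, and without OSW-1 mouse 3 the count was 6.

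**Figure D4:**
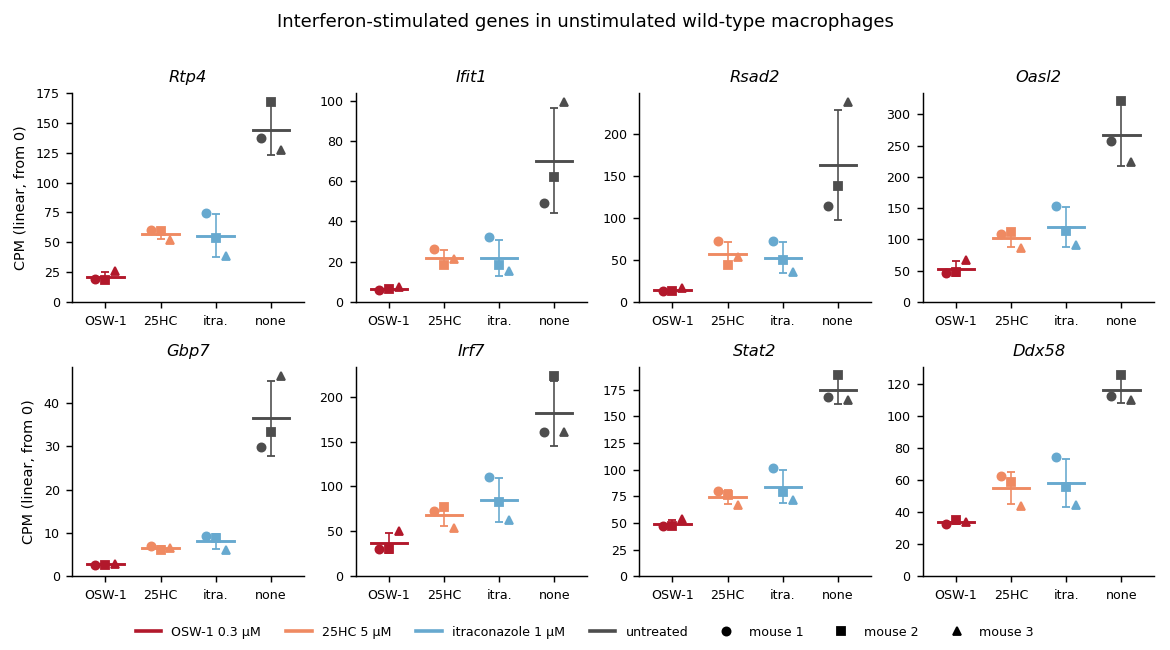
Interferon-stimulated genes are plotted per library as CPM on linear axes from 0, for OSW-1, 25HC, itraconazole and untreated cells from left to right, with the mean and SD of 3 mice. Rtp4 averaged 21.1 CPM with OSW-1, 57.1 with 25HC, 55.5 with itraconazole and 144 without compound.

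Genes of the NF-kB family and its inhibitors rose while interferon-stimulated genes fell. Of 16, 13 rose and none fell (median 0.57). Nfkbiz, a nuclear co-activator of selected cytokine genes, had 38.7, 36.95 and 32.8 CPM in OSW-1 libraries, against 11.01, 11.1 and 19.9 CPM in untreated libraries (1.37 ± 0.17, adjusted p = 9.49e-07). Relb had 62.9, 60.3 and 62.99 CPM in OSW-1 libraries, against 29.1, 24.4 and 44.5 CPM in untreated libraries (0.93 ± 0.14, adjusted p = 1.62e-05) and Rela had 183, 158 and 134 CPM in OSW-1 libraries, against 106, 91.97 and 114 CPM in untreated libraries (0.61 ± 0.11, adjusted p = 0.000124), both DNA-binding subunits. OSW-1 and untreated values were apart at all 3 genes. The feedback inhibitor genes rose too. Nfkbia had 111, 118 and 109.6 CPM in OSW-1 libraries, against 56.2, 50.4 and 67.1 CPM in untreated libraries (0.96 ± 0.18, adjusted p = 0.000121), Nfkbie had 36.9, 39.4 and 45.7 CPM in OSW-1 libraries, against 12.9, 15.01 and 17.1 CPM in untreated libraries (1.44 ± 0.15, adjusted p = 9.1e-08), and Tnfaip3, which encodes the deubiquitinase A20, had 41.1, 44.9 and 54.2 CPM in OSW-1 libraries, against 14.2, 16.1 and 18.7 CPM in untreated libraries (1.52 ± 0.26, adjusted p = 5.17e-05). Rel (0.03 ± 0.15, adjusted p = 0.919) and Bcl3 (0.06 ± 0.18, adjusted p = 0.815) were not called, and Bcl3 passed without untreated mouse 3 (0.48).

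Chemokines and receptors gave a mixed picture. Of 12 CXC chemokines 5 rose and 2 fell, and of 12 CC chemokines 2 fell and none rose. Cxcl16, a membrane-bound chemokine that also takes up oxidised lipid, had 447, 416 and 475 CPM in OSW-1 libraries, against 121, 103 and 177 CPM in untreated libraries (1.74 ± 0.15, adjusted p = 4.49e-09). Cxcl14 had 12.7, 19.7 and 27.3 CPM in OSW-1 libraries, against 3.02, 4.17 and 3.59 CPM in untreated libraries (2.47 ± 0.33, adjusted p = 2.56e-06). Both were higher in every OSW-1 library than in any untreated one. Ccl2 was not called, with 28.6, 40.03 and 27.1 CPM in OSW-1 libraries, against 31.05, 48.5 and 16.7 CPM in untreated libraries (-0.01 ± 0.59, adjusted p = 0.996), and Ccl6 fell, with 153, 155 and 215 CPM in OSW-1 libraries, against 340.3, 379 and 436 CPM in untreated libraries (-1.14 ± 0.26, adjusted p = 0.00109). Cxcl10 was not called either (-1.21 ± 0.49, adjusted p = 0.0527). Its untreated mouse 3 stood well above the other libraries at 6.75, 6.79 and 6.16 CPM with OSW-1, against 6.85, 8.02 and 31.1 CPM without. It passed with the mouse as a replicate block, DESeq2, DESeq2 size factors, no low-count filter and the filter of 10 CPM in 3 libraries (-1.20 to -1.32). It also passed without untreated mouse 1 (-1.57) or 2 (-1.52). The count of CXC genes that fell was 1 without OSW-1 mouse 2 or 3 or untreated mouse 3, and that of CC genes was 1 without OSW-1 mouse 1 or 2. Of 18 cytokines 4 rose and 2 fell, and Il6 held 11 reads with OSW-1 and 2 without, a ratio of 5.07 with a 95% exact counting interval of 1.11 to 47.1.

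Surface receptors of bacterial products diverged. Cd14, the LPS co-receptor, had 2011, 1633 and 1288 CPM in OSW-1 libraries, against 612, 528 and 563 CPM in untreated libraries (1.53 ± 0.16, adjusted p = 3.94e-08). Tlr2 had 183, 186 and 166 CPM in OSW-1 libraries, against 89.2, 78.2 and 120.0 CPM in untreated libraries (0.90 ± 0.20, adjusted p = 0.000847), while Tlr4, which signals LPS, was not called (-0.05 ± 0.10, adjusted p = 0.705). The endosomal receptors Tlr7 (-1.04 ± 0.13) and Tlr8 (-1.60 ± 0.32) fell. Among inflammasome genes, Nlrp3 had 169.7, 159 and 118 CPM in OSW-1 libraries, against 56.5, 67.3 and 62.4 CPM in untreated libraries (1.26 ± 0.18, adjusted p = 4.79e-06), but its adaptor Pycard (-0.94 ± 0.23) and Casp1 (-0.68 ± 0.18) fell. Trem1, an amplifier of myeloid activation, had one of the largest rises, with 19.3, 14.2 and 4.65 CPM in OSW-1 libraries, against 0.331, 0.573 and 0.186 CPM in untreated libraries (5.09 ± 0.82, adjusted p = 2.52e-05). Gpr84, a receptor of medium-chain fatty acids, had 44.6, 50.7 and 33.2 CPM in OSW-1 libraries, against 2.27, 2.45 and 2.11 CPM in untreated libraries (4.23 ± 0.46, adjusted p = 1.09e-07), and the prostaglandin synthase gene Ptgs2 had 6.75, 6.05 and 4.99 CPM in OSW-1 libraries, against 0.331, 0.365 and 0.433 CPM in untreated libraries (3.98 ± 0.75, adjusted p = 0.00018).

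Early response genes and their phosphatases rose in part. Of 14 AP-1 factors 6 rose and 4 fell, of 13 EGR, NR4A and other early factors 7 rose and 1 fell, and of 11 dual-specificity phosphatases, which switch off MAP kinases, 6 rose and 1 fell. Klf4, a zinc finger factor, had 106, 86.9 and 84.2 CPM in OSW-1 libraries, against 19.8, 16.4 and 19.1 CPM in untreated libraries (2.33 ± 0.18, adjusted p = 4.79e-10). Junb had 192, 198 and 250.1 CPM in OSW-1 libraries, against 85.2, 69.7 and 106 CPM in untreated libraries (1.29 ± 0.19, adjusted p = 1.11e-05). Myc had 34.6, 43.4 and 31.6 CPM in OSW-1 libraries, against 5.20, 9.90 and 4.64 CPM in untreated libraries (2.47 ± 0.26, adjusted p = 6.77e-08), and Dusp16 had 67.3, 58.3 and 46.5 CPM in OSW-1 libraries, against 20.9, 20.5 and 16.6 CPM in untreated libraries (1.57 ± 0.15, adjusted p = 2.67e-08). All 4 had OSW-1 values above the untreated ones. The AP-1 relative Maf, a factor of tissue-resident macrophages, had 133, 176 and 162 CPM in OSW-1 libraries, against 599, 650.4 and 638 CPM in untreated libraries and fell (-2.004 ± 0.25, adjusted p = 6.38e-07).

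**Figure D5:**
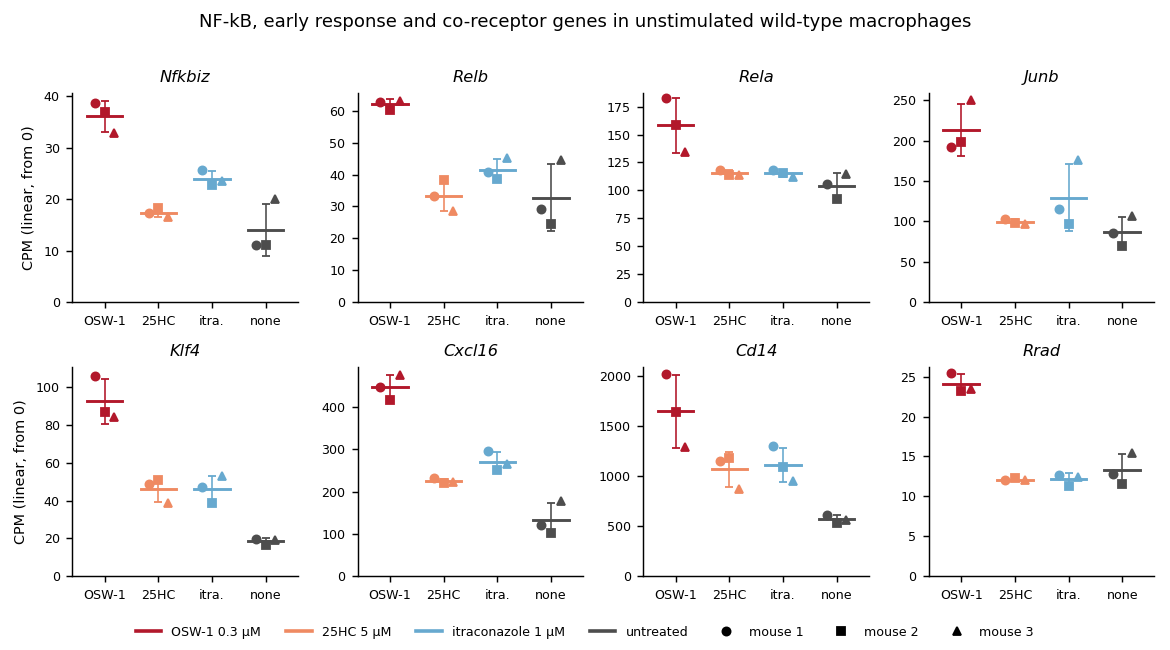
Single libraries of OSW-1, 25HC, itraconazole and untreated cells are plotted as CPM on linear axes from 0, with mean and SD of 3 mice and marker shape for the mouse. Relb lay between 60.3 and 63.0 CPM in the 3 OSW-1 libraries, above every other library shown, and Rrad averaged 24.1 CPM with OSW-1, 12.1 with 25HC, 12.1 with itraconazole and 13.3 without compound.

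Genes that mark resident-like macrophages fell with Maf. Of 16 tested, 13 fell and 1 rose (median -2.12). This list, like the others, was chosen with earlier results of these data known, so the count is a description only. Gas6, a bridge between apoptotic cells and the receptors that engulf them, had 283, 341 and 354 CPM in OSW-1 libraries, against 1557, 1426 and 1341 CPM in untreated libraries (-2.14 ± 0.13, adjusted p = 1.91e-11). Mrc1, the mannose receptor, had 555, 694 and 573 CPM in OSW-1 libraries, against 1983, 2209 and 1640.0 CPM in untreated libraries (-1.68 ± 0.26, adjusted p = 1.94e-05). Selenop, a selenium carrier listed as Sepp1, had 709, 854 and 1101 CPM in OSW-1 libraries, against 3189, 2821 and 5385 CPM in untreated libraries (-2.10 ± 0.35, adjusted p = 4.86e-05). OSW-1 values were the lower ones in every library of all 3 genes. Cbr2 had 8.15, 12.7 and 11.2 CPM in OSW-1 libraries, against 71.2, 76.4 and 68.6 CPM in untreated libraries (-2.76 ± 0.24, adjusted p = 5.1e-09), and F13a1, a transglutaminase gene, had 3.18, 5.81 and 5.27 CPM in OSW-1 libraries, against 36.9, 40.6 and 41.99 CPM in untreated libraries (-3.07 ± 0.53, adjusted p = 6.27e-05). Vsig4, a complement receptor, held 3 reads with OSW-1 and 38 without, a ratio of 0.0728 with a 95% exact counting interval of 0.0144 to 0.229. Timd4, a phosphatidylserine receptor, held 2 and 19 reads, a ratio of 0.0970 with an interval of 0.0110 to 0.402. Igf1 was the member called higher (0.37 ± 0.13, adjusted p = 0.0276), a call lost without OSW-1 mouse 1 or untreated mouse 2 or 3 (0.22 to 0.36). Of 16 scavenger and efferocytosis receptors 8 fell and none rose (median -0.90), and Mertk had 33.8, 42.3 and 52.8 CPM in OSW-1 libraries, against 90.7, 86.4 and 122 CPM in untreated libraries (-1.21 ± 0.21, adjusted p = 7.64e-05). Trem2 (-0.09 ± 0.21, adjusted p = 0.78) and Axl (0.13 ± 0.26, adjusted p = 0.747) were not called.

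Lineage factors moved in both directions. Of 16, 8 rose and 2 fell (median 0.32). Maf was among those that fell and had the lowest value of the list (-2.004). The genes that rose included Spi1, which encodes PU.1 (0.33 ± 0.09), Runx1 (0.42 ± 0.13), Id2 (0.91 ± 0.24) and Bhlhe40 (1.68 ± 0.36). The Runx1 call was lost without OSW-1 mouse 1 or untreated mouse 2 (0.37 and 0.36). Of 9 genes in the list of chemokine receptors and Csf1r 6 rose and none fell, or 3 without untreated mouse 1. Csf1r had overlapping groups, with 3094, 2747 and 2597 CPM in OSW-1 libraries, against 1921, 1745 and 2646 CPM in untreated libraries (0.42 ± 0.15, adjusted p = 0.0331), and lost its call in the fit limited to the 6 libraries (0.41) and without OSW-1 mouse 1 or 2 or untreated mouse 1 or 2 (0.30 to 0.44).

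Lysosomal membrane and hydrolase transcripts fell as a body by small amounts. Of 24 membrane proteins and hydrolases 21 fell and 1 rose (median -0.44), and all 24 had groups that did not overlap, which 53.6% of tested genes shared. Hexa, a hexosaminidase subunit gene, had 973, 1041 and 1148 CPM in OSW-1 libraries, against 1729.8, 1691 and 1877 CPM in untreated libraries (-0.74 ± 0.11, adjusted p = 1.43e-05). The protease gene Ctsb showed the largest fall in CPM of any called gene, with 11185, 11845 and 13382 CPM in OSW-1 libraries, against 19949, 19329 and 21868 CPM in untreated libraries (-0.75 ± 0.12, adjusted p = 3.82e-05), and Ctsd had 8044, 8799 and 9906 CPM in OSW-1 libraries, against 13215, 12718 and 13172 CPM in untreated libraries (-0.55 ± 0.12, adjusted p = 0.000641). Both are high in macrophages and were lower in every OSW-1 library. Of 12 cathepsins 4 fell and 8 were not called, and of 16 proton pump subunits 4 fell and 12 were not called. Among the regulators of lysosome genes Tfe3 rose (0.30 ± 0.07, adjusted p = 0.000734) and Tfeb was not called (0.12 ± 0.15, adjusted p = 0.548). Of 22 autophagy genes 4 rose and 3 fell. Without untreated mouse 3 no autophagy gene was called lower, and without untreated mouse 1 the proton pump count was 2.

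Metabolic and growth genes changed in single pathways. Fabp5, a fatty acid carrier, had 34.9, 47.3 and 66.4 CPM in OSW-1 libraries, against 226, 239.9 and 221 CPM in untreated libraries (-2.21 ± 0.21, adjusted p = 1.67e-08), with a wide gap between groups. Pfkp, a glycolytic kinase gene, had 460.4, 358 and 288 CPM in OSW-1 libraries, against 130.1, 133 and 97.5 CPM in untreated libraries (1.62 ± 0.16, adjusted p = 2.73e-08), but of 20 glycolysis genes 4 rose and 2 fell. Of 27 oxidative phosphorylation subunits 11 fell and none rose (median -0.19), for instance Atp5o (-0.42 ± 0.08) and Sdhd (-0.39 ± 0.09). That count was 5, 7 and 6 without OSW-1 mouse 1, OSW-1 mouse 2 and untreated mouse 1. Iron handling fell in 6 of 14 genes and rose in 1, and the iron exporter Slc40a1 had 206, 129 and 58.6 CPM in OSW-1 libraries, against 417, 326 and 371 CPM in untreated libraries (-1.50 ± 0.39, adjusted p = 0.00346). Matrix and plasminogen genes rose in 6 of 14 and fell in 1 (median 1.47). Mmp12, the macrophage elastase, had 1209, 1209 and 1968 CPM in OSW-1 libraries, against 312, 353 and 368 CPM in untreated libraries (2.09 ± 0.24, adjusted p = 2.59e-07). Ribosome biogenesis genes rose in 16 of 20 and fell in none (median 0.60), with the methyltransferase gene Nop2 at 44.9, 42.2 and 40.5 CPM in OSW-1 libraries, against 20.9, 22.3 and 15.05 CPM in untreated libraries (1.13 ± 0.16, adjusted p = 6.3e-06), while only 3 of 38 cytosolic ribosomal protein genes were called, all higher. Mitotic genes fell in 12 of 22 (median -0.41), for example Aurkb, a spindle kinase gene, with 61.7, 64.04 and 59.1 CPM in OSW-1 libraries, against 87.7, 84.5 and 83.5 CPM in untreated libraries (-0.47 ± 0.10, adjusted p = 0.000435), although Mki67 was not called (-0.42 ± 0.27, adjusted p = 0.233). The count was 20 of 22 in the fit on the 6 libraries alone, and 7 of 22 without OSW-1 mouse 3 or untreated mouse 1. Clock genes changed in both directions, 4 of 14 each way, and the output factor Dbp had 6.66, 6.20 and 10.3 CPM in OSW-1 libraries, against 43.1, 40.02 and 57.5 CPM in untreated libraries (-2.60 ± 0.35, adjusted p = 2.43e-06).

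The 3 compounds could be set side by side because mouse numbers and untreated libraries were shared, although those shared untreated libraries tie the 3 sets of fold changes to each other. Against untreated cells 28.7% of genes were called with 25HC and 26.8% with itraconazole. Direct tests between compounds called far fewer. OSW-1 differed from 25HC at 373 genes, 2.83% of those tested, 196 higher (1.49%) and 177 lower (1.34%). With the mouse as a replicate block that count was 642 (350 higher and 292 lower). From itraconazole it differed at 834 genes (6.33%), 472 higher (3.58%) and 362 lower (2.75%). The block gave 1243 there, with 557 lower. These counts depended on single libraries. Without OSW-1 mouse 1 they were 95 against 25HC and 176 against itraconazole, and without OSW-1 mouse 2 they were 124 and 489. In the library of 25HC mouse 3, 46.1% of the genes with a count had an odd one, whereas the other unstimulated C57BL/6 libraries held even counts only. Without it 334 genes differed from 25HC. Leaving out 25HC mouse 1 or 2 gave 86 and 139, and leaving out itraconazole mouse 1 or 2 gave 383 and 295. The split against itraconazole also moved, 56.6% of calls being higher in OSW-1 cells as given and 46.9% with DESeq2 size factors. A difference between compounds at these doses is a difference between the treatments as given, and dose and compound cannot be told apart. Of the genes whose direct differences are given next, 23 differed from 25HC and 28 from itraconazole, and 10 and 15 of these calls held under every setting and with any library left out.

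Sterol synthesis genes were lower with OSW-1 than with itraconazole, and none passed against 25HC. All 10 mevalonate genes differed from itraconazole, 9 lower and 1 higher, as did 10 of the 11 sterol arm genes, all lower. Of all genes, 2.75% were lower than with itraconazole and 3.58% higher. None of the 21 synthesis genes differed from 25HC. With 1 library left out, 7 to 10 sterol arm genes were lower than with itraconazole, and the 9 lower mevalonate genes were 4 without OSW-1 mouse 1, 5 without OSW-1 mouse 2 and 6 to 8 otherwise. Fdps had log2 fold changes over untreated of -2.70 with OSW-1, -2.32 with 25HC and -1.004 with itraconazole. For Stard4 the 3 values were -1.94, -1.78 and -0.49, and for Srebf2 -1.15, -1.24 and -0.20. OSW-1 minus itraconazole was -1.69 ± 0.22, adjusted p = 0.000115 at Fdps (95% interval -2.16 to -1.23) and -0.95 ± 0.09, adjusted p = 9.8e-07 at Srebf2 (-1.13 to -0.76). OSW-1 minus 25HC was -0.09 ± 0.13, adjusted p = 0.782 at Hmgcs1 (95% interval -0.37 to 0.18) and 0.10 ± 0.09, adjusted p = 0.646 at Srebf2 (-0.09 to 0.28), and differences within those bounds were not detectable. Soat2 was higher with OSW-1 than with itraconazole (1.33 ± 0.26, adjusted p = 0.00346). In fatty acid synthesis, Elovl5, a fatty acid elongase gene, was lower than with either compound (-0.42 ± 0.09, adjusted p = 0.0116 against 25HC and -0.35 ± 0.09, adjusted p = 0.017 against itraconazole). Its call against 25HC was lost without OSW-1 mouse 2 or 25HC mouse 1 (-0.41 and -0.38), and that against itraconazole without mouse 1 or 2 of either group (-0.34 to -0.36). LXR targets were called higher than with itraconazole in 4 of 14 and higher than with 25HC in none. The shares over all genes were 3.58% and 1.49%.

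In the secretory lists some genes were higher with OSW-1 than with itraconazole, and none passed against 25HC. None of the 9 COPI, 13 COPII, 11 KDEL and p24 or 13 golgin genes differed between OSW-1 and 25HC, while 1, 4, 0 and 4 of them were higher than with itraconazole, where 3.58% of all genes were. Sec31a differed from 25HC by 0.04 ± 0.10, adjusted p = 0.902 (95% interval -0.18 to 0.26) and from itraconazole by 0.35 ± 0.10, adjusted p = 0.0425 (0.14 to 0.57), a call lost without any 1 of the 6 libraries (0.31 to 0.39), with DESeq2 size factors (0.33) and with no low-count filter (0.35). The 4 COPII calls were 0 to 2 without any library except OSW-1 mouse 3, the 4 golgin calls were 1 without OSW-1 mouse 1 and 2 without itraconazole mouse 1 or 2, and the COPI call was lost without OSW-1 mouse 1 or itraconazole mouse 3. Creb3l2 stood out from that pattern. It was higher with OSW-1 than with either other compound, at 31.2 ± 3.04 CPM with OSW-1, 20.9 ± 0.250 with 25HC, 20.996 ± 1.07 with itraconazole and 19.7 ± 0.746 untreated (SD, n = 3 each), the differences being 0.58 ± 0.09, adjusted p = 0.000834 from 25HC and 0.57 ± 0.09, adjusted p = 0.000395 from itraconazole in the edgeR fit. ATF4 targets were higher with OSW-1 than with itraconazole in 12 of 19. Against 25HC, where 1.49% of all genes were higher, 3 of them were, namely Nupr1, Herpud1 and Sesn2. Without OSW-1 mouse 1 these counts were 4 and 0, without itraconazole mouse 2 the count of 12 was 7, and without 25HC mouse 1 or 3 the count of 3 was 1. Sesn2, which restrains mTORC1, averaged 85.4 ± 16.7 CPM with OSW-1, 52.9 ± 8.81 with 25HC, 43.4 ± 5.40 with itraconazole and 48.8 ± 4.27 untreated (SD, n = 3 each). The edgeR differences were 0.69 ± 0.13, adjusted p = 0.00595 from 25HC and 0.98 ± 0.13, adjusted p = 0.000139 from itraconazole. For Trib3 they were 0.70 ± 0.35, adjusted p = 0.325 and 1.72 ± 0.37, adjusted p = 0.00617. Without OSW-1 mouse 1, Sesn2 lost its call against 25HC (0.53) and Trib3 its call against itraconazole (1.44). Bag3 was higher than with either compound (0.42 ± 0.09, adjusted p = 0.0148 and 0.41 ± 0.09, adjusted p = 0.00958), but not against 25HC without OSW-1 mouse 3 or 25HC mouse 1 (0.36 and 0.39), nor against itraconazole without itraconazole mouse 1 or 2 (0.35 each).

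The fall of interferon-stimulated genes was deeper with OSW-1 than with either other compound in 20 of the 42 genes of the 3 effector lists. By list these were 10 of 18, 4 of 8 and 6 of 16, while the direct tests over all genes called 1.34% lower than 25HC and 2.75% lower than itraconazole. Rtp4 averaged 21.1 ± 4.17 CPM with OSW-1, 57.1 ± 4.41 with 25HC, 55.5 ± 17.9 with itraconazole and 144 ± 21.1 untreated (SD, n = 3 each). The direct differences were -1.44 ± 0.19, adjusted p = 0.000289 from 25HC and -1.40 ± 0.19, adjusted p = 0.000139 from itraconazole. For Ifit1 they were -1.73 ± 0.35, adjusted p = 0.0103 and -1.73 ± 0.35, adjusted p = 0.00451. Irf7 differed from itraconazole (-1.21 ± 0.25, adjusted p = 0.00475), and its difference from 25HC did not pass (-0.88 ± 0.25, adjusted p = 0.0518). Tnfsf10, which encodes the death ligand TRAIL and is itself interferon-induced, had 0.479, 0.586 and 0.392 CPM in OSW-1 libraries, against 3.50, 4.64 and 8.11 CPM in untreated libraries, and differed from 25HC by -1.95 ± 0.39, adjusted p = 0.00893 and from itraconazole by -1.79 ± 0.39, adjusted p = 0.00785. None of the 42 was higher with OSW-1 than with either compound. These calls rested on single libraries. Of the 42, 20 were lower than with 25HC as given, 5 without OSW-1 mouse 1 or 25HC mouse 1, 7 without OSW-1 mouse 2 and 13 without 25HC mouse 2. Against itraconazole 27 were lower as given, 11 without OSW-1 mouse 1 and 13 without itraconazole mouse 1. Rtp4 kept both calls with any library left out. Ifit1 lost its call against 25HC without OSW-1 mouse 1 or 25HC mouse 1 (-1.65 and -1.58), and Tnfsf10 lost its call against 25HC without 25HC mouse 1 (-1.82) and against itraconazole without OSW-1 mouse 1 (-1.77). Irf7 lost its call against itraconazole without OSW-1 mouse 1 (-1.09). Against 25HC it passed with the mouse as a replicate block, with DESeq2, with no low-count filter and with the stricter CPM filter. It also passed there without OSW-1 mouse 3 (-1.16) or 25HC mouse 3 (-1.02).

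NF-kB genes differed from 25HC in the other direction. Over untreated cells, 13 of 16 rose with OSW-1 and none fell, 4 rose and 2 fell with 25HC, and 6 rose and none fell with itraconazole. The shares of all genes that rose were 20.1%, 15.9% and 14.4%, and those that fell 17.2%, 12.8% and 12.4%, in the same order. In direct tests 1.49% of all genes were higher than with 25HC, 3.58% higher than with itraconazole, and 0.797% higher than with both and than untreated. Of the NF-kB genes, 6 were higher than with 25HC, 4 higher than with itraconazole and 3 higher than with both. Those 3 were Nfkbiz (1.06 ± 0.17, adjusted p = 0.0017 from 25HC and 0.59 ± 0.17, adjusted p = 0.0341 from itraconazole), Relb (0.89 ± 0.14, adjusted p = 0.00167 and 0.58 ± 0.14, adjusted p = 0.0145) and Rela (0.46 ± 0.11, adjusted p = 0.0231 and 0.46 ± 0.11, adjusted p = 0.0133). Junb (1.11 ± 0.19, adjusted p = 0.0035 and 0.72 ± 0.19, adjusted p = 0.0244), Klf4 (1.005 ± 0.17, adjusted p = 0.00226 and 0.998 ± 0.17, adjusted p = 0.00116), Cxcl16 (0.98 ± 0.15, adjusted p = 0.000908 and 0.72 ± 0.15, adjusted p = 0.0052) and Cd14 (0.63 ± 0.15, adjusted p = 0.024 and 0.57 ± 0.15, adjusted p = 0.0265) were likewise higher than with both. Tlr2 (0.90 ± 0.20, adjusted p = 0.0144) passed against 25HC only, and Ptgs2 passed against neither (1.99 ± 0.62, adjusted p = 0.0781 and 1.74 ± 0.60, adjusted p = 0.0813). Ptgs2 passed against both with the mouse as a replicate block, with DESeq2 and in the fit on the groups compared. The calls of Klf4 and Cxcl16 against both compounds, and those of Nfkbiz, Relb and Junb against 25HC, held with any library left out and under every other setting. Against itraconazole, Nfkbiz lost its call without mouse 1 or 2 of either group or itraconazole mouse 3 (0.54 to 0.65), Relb without OSW-1 mouse 1 or itraconazole mouse 1 or 2 (0.53 to 0.57), and Junb without those 3 or OSW-1 mouse 3 (0.55 to 0.79). Rela lost its call against 25HC without any library except OSW-1 mouse 3 (0.34 to 0.48), and against itraconazole without OSW-1 mouse 1 or itraconazole mouse 2 or 3 (0.34 to 0.46). Cd14 lost its call against 25HC without OSW-1 mouse 1 or 2 or 25HC mouse 1 or 3 (0.46 to 0.69), and against itraconazole without OSW-1 mouse 1 or 2 or itraconazole mouse 2 or 3 (0.39 to 0.57). In the fit on the groups compared, Cd14 lost both calls (0.63 against 25HC and 0.56 against itraconazole) and Rela its call against 25HC (0.46). Tlr2 lost its call without OSW-1 mouse 1 or 2 or 25HC mouse 1 or 3 (0.76 to 0.92). The 6 NF-kB calls against 25HC were 2 to 4 with 1 library left out, and the 4 against itraconazole were 0 to 2 without any library except OSW-1 mouse 3.

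In all, 105 genes (0.797%) were higher with OSW-1 than in untreated, 25HC and itraconazole cells, each by its own test, and 106 (0.805%) were lower. Without OSW-1 mouse 1 these counts were 13 and 20, without OSW-1 mouse 2 they were 45 and 32, and without any 1 of the 25HC or itraconazole libraries they were 39 to 80 and 24 to 100. By the smaller of their differences from the other compounds, the leading ones not yet described included Rrad, a small GTPase gene. It had 25.5, 23.2 and 23.5 CPM in OSW-1 libraries, against 12.8, 11.5 and 15.5 CPM in untreated libraries (0.86 ± 0.13, adjusted p = 7.6e-06), and differed by 0.99 ± 0.13, adjusted p = 0.000237 from 25HC and by 0.99 ± 0.13, adjusted p = 8.12e-05 from itraconazole. Arid5a, an RNA-binding protein that stabilises inflammatory mRNAs, had 60.9, 44.1 and 27.97 CPM in OSW-1 libraries, against 17.6, 15.7 and 23.1 CPM in untreated libraries (1.24 ± 0.20, adjusted p = 3.14e-05), with differences of 0.94 ± 0.20, adjusted p = 0.0123 and 1.31 ± 0.20, adjusted p = 0.000534. Atp2b4, a plasma membrane calcium pump, had 30.4, 30.9 and 22.5 CPM in OSW-1 libraries, against 3.12, 2.71 and 2.72 CPM in untreated libraries (3.29 ± 0.26, adjusted p = 6.6e-10), with differences of 1.59 ± 0.23, adjusted p = 0.000808 and 1.10 ± 0.23, adjusted p = 0.00516. Nfil3, a bZIP repressor, had 31.7, 22.5 and 20.5 CPM in OSW-1 libraries, against 8.51, 7.76 and 9.78 CPM in untreated libraries (1.52 ± 0.16, adjusted p = 4.17e-08), with differences of 0.88 ± 0.15, adjusted p = 0.00297 and 0.93 ± 0.15, adjusted p = 0.00091. Ldlrad4, an inhibitor of TGF-β signalling, rose by 1.11, with differences of 0.88 ± 0.19, adjusted p = 0.0141 and 0.89 ± 0.19, adjusted p = 0.00644. OSW-1 and untreated groups were apart at all 5, as the rule for naming them required. Rrad, Atp2b4 and Nfil3 kept both calls in every alternative. Arid5a lost its call against 25HC without OSW-1 mouse 1 or 25HC mouse 3 (0.65 and 0.78) and in the fit on the groups compared (0.95), and Ldlrad4 without 25HC mouse 1 or 2 (0.83 and 0.76). On the lower side, Cst7, which encodes the lysosomal protease inhibitor cystatin F, had 1.39, 1.71 and 1.46 CPM in OSW-1 libraries, against 5.72, 4.38 and 2.79 CPM in untreated libraries (-1.51 ± 0.30, adjusted p = 0.000275). Its mean was 1.52 ± 0.166 CPM with OSW-1, 5.06 ± 0.573 with 25HC, 4.48 ± 1.09 with itraconazole and 4.29 ± 1.47 untreated (SD, n = 3 each).

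DNA replication genes were set against untreated cells and against both compounds. Of 25, 2 fell with OSW-1 (median -0.01), whereas 8 rose with 25HC and 11 with itraconazole and none fell with either. Over all genes, 17.2% fell with OSW-1, 15.9% rose with 25HC and 14.4% rose with itraconazole. OSW-1 was below 25HC in 3 of them, against 1.34% of all genes, and below itraconazole in 8, against 2.75% of all genes. The 3 below both were Pcna, the polymerase clamp, Gins2, a helicase subunit, and Rrm1, a ribonucleotide reductase subunit. Pcna had 132, 130.2 and 154 CPM in OSW-1 libraries, against 189, 212 and 142 CPM in untreated libraries (-0.39 ± 0.18, adjusted p = 0.0997), and differed from 25HC by -0.68 ± 0.18, adjusted p = 0.0437 and from itraconazole by -0.64 ± 0.18, adjusted p = 0.0349. Gins2 had 22.1, 25.4 and 24.9 CPM in OSW-1 libraries, against 34.02, 37.7 and 27.7 CPM in untreated libraries (-0.46 ± 0.12, adjusted p = 0.00381), with differences of -0.47 ± 0.12, adjusted p = 0.0338 and -0.62 ± 0.12, adjusted p = 0.00309. Rrm1 had 168, 184 and 160.1 CPM in OSW-1 libraries, against 227, 247 and 188 CPM in untreated libraries (-0.37 ± 0.12, adjusted p = 0.0178), with differences of -0.44 ± 0.12, adjusted p = 0.0496 and -0.55 ± 0.12, adjusted p = 0.00792. Its fall against untreated cells was lost when OSW-1 mouse 1 or 3 or untreated mouse 1 or 2 was left out (-0.28 to -0.36). Without any 1 of the 6 libraries Pcna lost its call against 25HC (-0.63 to -0.76), and Gins2 (-0.41 to -0.50) and Rrm1 (-0.39 to -0.49) lost theirs without any except 25HC mouse 3. Rrm1 also lost it with DESeq2 size factors and with no low-count filter (-0.44 each). Gins2 kept its call against itraconazole in every alternative, whereas Rrm1 lost it without OSW-1 mouse 1 (-0.54), and Pcna without any library except OSW-1 mouse 3 (-0.59 to -0.67). The list count of 3 against 25HC was 7 without 25HC mouse 3 and 0 without any of the other 5 libraries, and that of 8 against itraconazole was 1 without OSW-1 mouse 1, 5 without OSW-1 mouse 3, 2 without itraconazole mouse 1 and 3 without itraconazole mouse 2.

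The OSW-1 effect with LPS differed from that at rest at 6808 genes (51.7%), 23.4% in the upward and 28.3% in the downward direction, and a few such genes are given at the end. Of the largest falls outside the groups above, Lipg, an endothelial-type phospholipase gene, had 0.261, 0 and 0.0560 CPM in OSW-1 libraries, against 2.50, 2.55 and 1.80 CPM in untreated libraries (-4.30 ± 0.82, adjusted p = 0.000191). Trim30c had 0.697, 0.732 and 0.673 CPM in OSW-1 libraries, against 10.6, 11.5 and 12.4 CPM in untreated libraries (-4.03 ± 0.42, adjusted p = 6.26e-08) and Pydc3, a PYRIN-domain gene of the interferon-inducible cluster, had 0.392, 0.586 and 0.785 CPM in OSW-1 libraries, against 5.43, 8.13 and 8.92 CPM in untreated libraries (-3.69 ± 0.54, adjusted p = 7.6e-06). All 3 were lower in every OSW-1 library, which the rule for the largest falls required. The lincRNA Yam1 had the second largest fall in CPM after Ctsb, but it had overlapping groups, with 3557, 3762 and 2011 CPM in OSW-1 libraries, against 3266, 9044 and 17705 CPM in untreated libraries (-1.69 ± 0.60, adjusted p = 0.03), and lost its call without any of OSW-1 mouse 1 (-1.79), 2 (-1.84) or 3 (-1.45) or untreated mouse 3 (-0.99). Among the largest rises in CPM were Lilrb4, an inhibitory receptor (0.79 ± 0.22, adjusted p = 0.00708), the cytoskeletal linker Msn (0.68 ± 0.14, adjusted p = 0.000392) and the scaffold Iqgap1 (0.58 ± 0.16, adjusted p = 0.00688). Lilrb4 (0.63) and Iqgap1 (0.45) lost their calls without OSW-1 mouse 1.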

How the data were processed

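The authors' deposited counts, for 30538 genes in 30 libraries, were used unchanged. The submitters' processing notes name the mm10 (GRCm38) build and, in no order, the tools GSNAP 2018-07-04, edgeR 3.26.8, Subread 1.5.2 with featureCounts, and FastQC 0.11.9. The libraries were polyA-selected and stranded, per the labels' protocols. The strand setting and annotation release are not given in the sources used here, so counts of overlapping genes and close paralogs are uncertain. All counts are even in 20 libraries, including the 6 compared here, so reads behind ratios and intervals were taken as counts divided by 2, and those intervals cover counting error only.

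Genes were filtered with filterByExpr (minimum count 10), which left 13173. The rest included 11735 with no count in any library. Counts were normalized with TMM and fitted with edgeR's quasi-likelihood test over 10 groups of 3 libraries, with Benjamini-Hochberg adjustment over all tested genes. A standard error is the size of the fold change (log2) over the root of its F statistic. The 95% intervals between compounds use a t distribution with 20 residual degrees of freedom. The pipeline was tested on simulated data. Versions here were DESeq2 1.42.0, edgeR 4.0.16 and limma 3.58.1 under R 4.3.3, and matplotlib 3.10.9, numpy 2.4.6 and pandas 2.3.3 under Python 3.11.15.

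The 65 gene lists, the comparisons and the rule for named genes were chosen with earlier results of these data known. The rule named the 12 largest rises and falls (log2 fold change of at least 1, average log2 CPM of at least 2, groups apart), the 8 largest in CPM each way, the 8 furthest from both compounds each way, each list's 5 members of smallest p, and 16 fixed genes. Other members named were picked for their role or because they went against their list, after their values were seen. Some genes named by the rule are not reported here. Genes were matched by identifier, and 1 list symbol was not found. Promoter sequences are from RefSeq (GRCm38.p6).

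Per the labels, a mouse field numbers the animals within each genotype, so the number was taken to pair libraries of 1 genotype. Deviations from group means correlated at 0.192, 0.0926 and 0.203 between OSW-1 and untreated libraries of 1 mouse, and at -0.174 to 0.0164 between mice. Deviations cancel within a group, so positive values within a mouse force negative ones between mice on average, and the pairing rests on the labels. Alternatives were the mouse as a block, each library left out, a fit on the compared groups, DESeq2, its size factors in edgeR, halved even counts, a filter of 10 CPM in 3 libraries and no filter.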

Additional observations from a re-analysis of the deposited data

Results flagged for a closer look

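Of 16 genes fixed for this purpose, 10 differed in their OSW-1 effect between cells with LPS (10 ng/mL for 18 h) and unstimulated cells. The difference was tested by an interaction term in the edgeR fit. The same term was called at 51.7% of all 13173 genes tested, so such a difference was common. OSW-1 is listed at 18 h with and without LPS, and the 18 h of LPS had no counterpart in unstimulated cells. LPS and any added time since the compound cannot be told apart. Values are log2, with LPS minus without. Kdelr2, a KDEL receptor gene, differed by 0.79 ± 0.11, adjusted p = 1.41e-06, with 1.24 at rest and 2.03 with LPS. Among interferon-stimulated genes, Ifit3 differed by 1.30 ± 0.44, adjusted p = 0.0171 and Oas2 by 0.87 ± 0.24, adjusted p = 0.00347, both having fallen less with LPS.

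For the cytokine genes among the fixed ones, the OSW-1 effect was higher with LPS present. Cxcl2 differed by 2.73 ± 0.61, adjusted p = 0.000552, Tnf by 1.46 ± 0.61, adjusted p = 0.0467 and Il1b by 1.45 ± 0.51, adjusted p = 0.0194. Il10 differed by 2.64 ± 0.46, adjusted p = 3.36e-05, with a fall of -2.65 at rest and -0.01 with LPS. Cx3cr1, the fractalkine receptor, changed sign, with 4.40 at rest and -4.03 with LPS, a difference of -8.43 ± 1.01, adjusted p = 2.28e-07. Ch25h, the 25-hydroxylase, differed by -3.93 ± 0.85, adjusted p = 0.000423. It rose by 3.44 at rest and was not called with LPS (-0.49). Whether each interaction call held with a library left out is not given here, and that of Tnf lies close to the threshold. The libraries with OSW-1 and LPS hold odd and even counts alike, whereas the other 3 groups in this comparison hold even counts only, and the way of counting and that group cannot be told apart.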

How the results depend on the processing

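For OSW-1 against untreated cells, 4912 genes were called as given, 4336 to 5456 under the other settings and 3733 to 4565 with 1 library left out, and none of the 4912 changed sign in any of these. As a replicate block, the mouse gave 5362. Against 25HC (373 called, 196 higher and 177 lower), the replicate block gave 642 (350 and 292) and DESeq2 714 (364 and 350), and leaving out 1 library gave 86 to 334 (53 to 178 higher, 33 to 156 lower). Against itraconazole (834 called, 472 and 362), the compared groups alone gave 1924 (875 and 1049), DESeq2 1313 (730 lower) and the block 1243 (557 lower), and leaving out 1 library gave 176 to 677 (96 to 410 higher, 80 to 285 lower). Leaving out a library takes away samples. The cause of the other shifts was not tested. The share of calls higher than with itraconazole was 56.6% as given, 46.9% with DESeq2 size factors, 44.4% with DESeq2 and 45.5% on the compared groups. The interaction count (6808) stayed at 5773 to 7153. Apart from the calls named beside their results, the block changed no call of a listed group by more than 1.5 times except cathepsins (2 called higher in place of 0), complement (3 lower in place of 1) and cytosolic ribosomal proteins (1 lower in place of 0). The fit on the 6 libraries alone also called Mki67 (-0.43), Pcna (-0.40), Hmox1 (-0.25) and Cdkn1a (0.30), which were not called as given. With 3 mice and 30634780 to 40770004 counts, genes of few reads, such as interferon genes, could not be compared.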
